A study of Macaca fascicularis with 4 samples.

Results

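This comparison covers 2 of the 4 libraries of the series, those labelled oWAT and sWAT, from the cynomolgus monkey (Macaca fascicularis); the other 2 are liver and muscle. Both were chosen by their tissue label. WAT commonly stands for white adipose tissue; the labels leave the first letters unexplained, and the label was followed where the file name of the same sample carried another abbreviation. Each library was made from RNA of 5 monkeys, pooled by tissue, and read as full-length molecules on a PacBio Sequel II instrument. The sources used here give no sex, age, diet, treatment or collection site within a depot. With 1 pooled library per tissue there is no replicate. The intervals below cover counting error only, no p-value is given, and a difference between the libraries is not shown to be a difference between animals.

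White fat stores triglyceride in adipocytes and also holds progenitors, fibroblasts, blood vessels, nerves and immune cells. Visceral fat such as the omentum lies in the abdominal cavity under a mesothelium, a sheet of epithelium-like cells that covers the serosa, and carries immune cell clusters known as milky spots. Subcutaneous fat lies under the skin within a collagen-rich connective tissue. The depots arise from different parts of the embryonic mesoderm, and adipocytes and progenitors keep part of that positional identity in their transcription factors.

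Counts assigned to genes totalled 396797 in oWAT and 383896 in sWAT. A gene listed in 1 library and not in the other was taken as 0 there. Levels are CPM, the counts scaled to a library total of 1e+06, and pairs of counts are written as oWAT against sWAT throughout. A gene was measured if it had at least 10 counts in either fat library, which held for 7040 genes. It was called higher in a library if it had at least 10 counts there and the exact 95% interval of the fold stayed above 2. This called 94 genes (1.34% of those measured) in oWAT and 46 (0.653%) in sWAT. The split depended on the scaling: with DESeq2 size factors it was 74 and 82. Each of the 46 sWAT genes was still called, which was fixed in advance because every other scaling moves all ratios toward sWAT. A wider set held the genes whose interval stayed above 1 with each of 5 scalings, among them TMM (trimmed mean of M-values) and DESeq2 size factors. It had 640 genes (9.09%) for oWAT and 539 (7.66%) for sWAT. A fold below is followed by its exact interval with library totals, and for genes with 1 to 3 counts in the lower library the same is given as a ratio. At 0 counts the fold is set against a floor of 3 counts, and the lower bound of the exact interval, which decides the call, stands beside it. These are per-gene intervals, not corrected for the number of genes. "Higher" below refers to genes in one of these 2 sets, with the count of each. The median gene lay 0.18 above 0 on the log2 scale in favour of oWAT, and the other scalings lowered every log2 ratio by 0.11 to 0.18, so list medians are best read against that value.

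**Figure D1:**
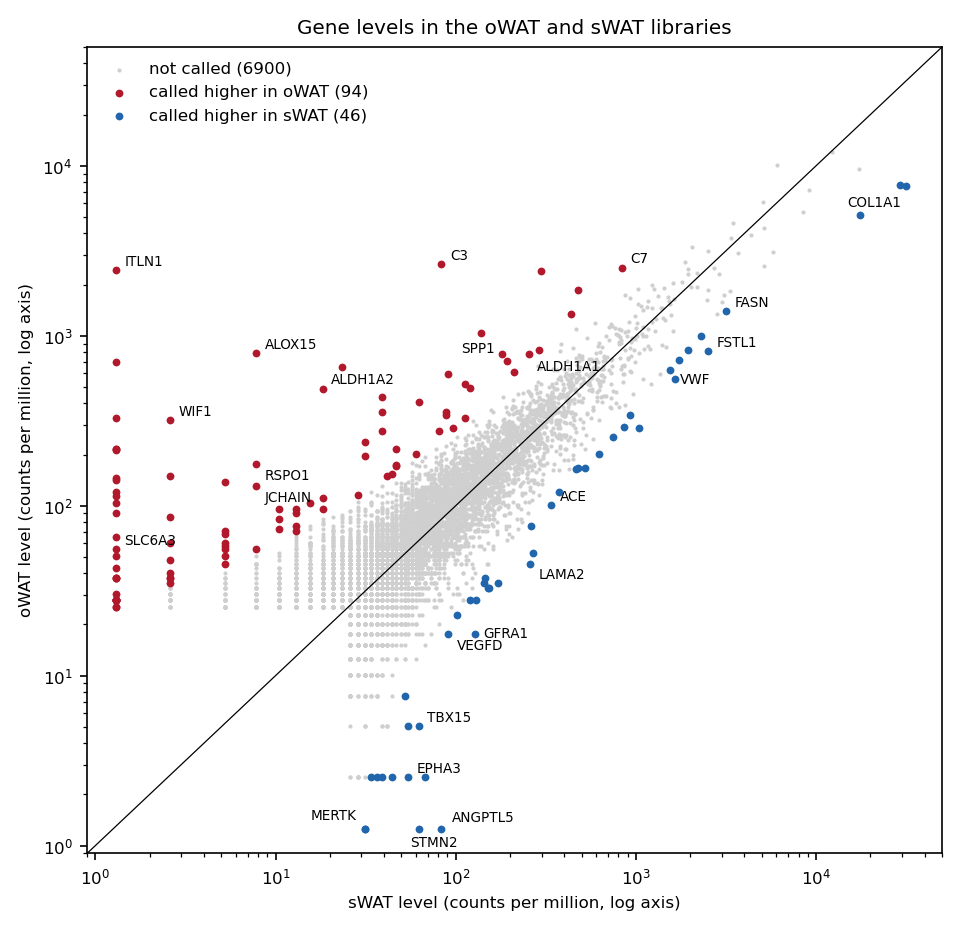
Level of each measured gene in sWAT (horizontal) and oWAT (vertical), in CPM on log axes; genes at 0 counts are drawn at the level of 0.5 counts, and the diagonal marks equal levels. The 94 genes called higher in oWAT (red) reach down to 0 counts in sWAT, while among the 46 called higher in sWAT (blue) the fibrillar collagens stand at the top right.

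Both libraries carried adipocyte RNA, and the list summed to close levels, 33526 against 36890.2 CPM. Single genes differed more. Of 29 measured adipocyte genes, 0 were called in either direction, but the wider set held 4 for oWAT and 10 for sWAT. Of all measured genes it held 9.09% and 7.66%. Mesothelial markers separated the libraries: 17 of 19 measured members were called higher in oWAT, and the list summed to 9352 against 529 CPM. The same list summed to 12110 CPM in liver, where its member C3 had 4997 of 5299 counts. The sum is therefore not a measure of mesothelial RNA alone. In sWAT, WT1, MSLN, UPK1B, UPK3B, LRRN4 and KRT19 were all at 0 counts. CALB2 (calretinin), another common marker of that cell type, had 0 against 2 counts. What part this mesothelial signal has in the other genes higher in oWAT was not tested. In bulk RNA fewer cells of a type and less RNA per cell cannot be told apart.

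Several defining genes of neighbouring tissues were near 0 in both fat libraries. The skeletal muscle actin ACTA1 had 0 against 1 counts and the creatine kinase CKM 0 against 1; the muscle library had 15827 of ACTA1. The skeletal muscle list summed to 133 against 93 counts, and its member ACTN3 was in the wider set for oWAT (55 against 21). ALB (serum albumin) had 1 against 0. The hepatocyte list summed to 157 against 309, nearly all of it TF, transferrin (151 against 308), which was in the wider set for sWAT. Of the 18 pancreas, gut and skin epithelium genes, only KRT5 and KRT10 had any count, with 1 against 0 and 1 against 1 counts. HBB (beta-globin), a sign of blood, had 2 against 15 counts, a ratio of 7.75 (1.803 to 69.9) in favour of sWAT.

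**Figure D2:**
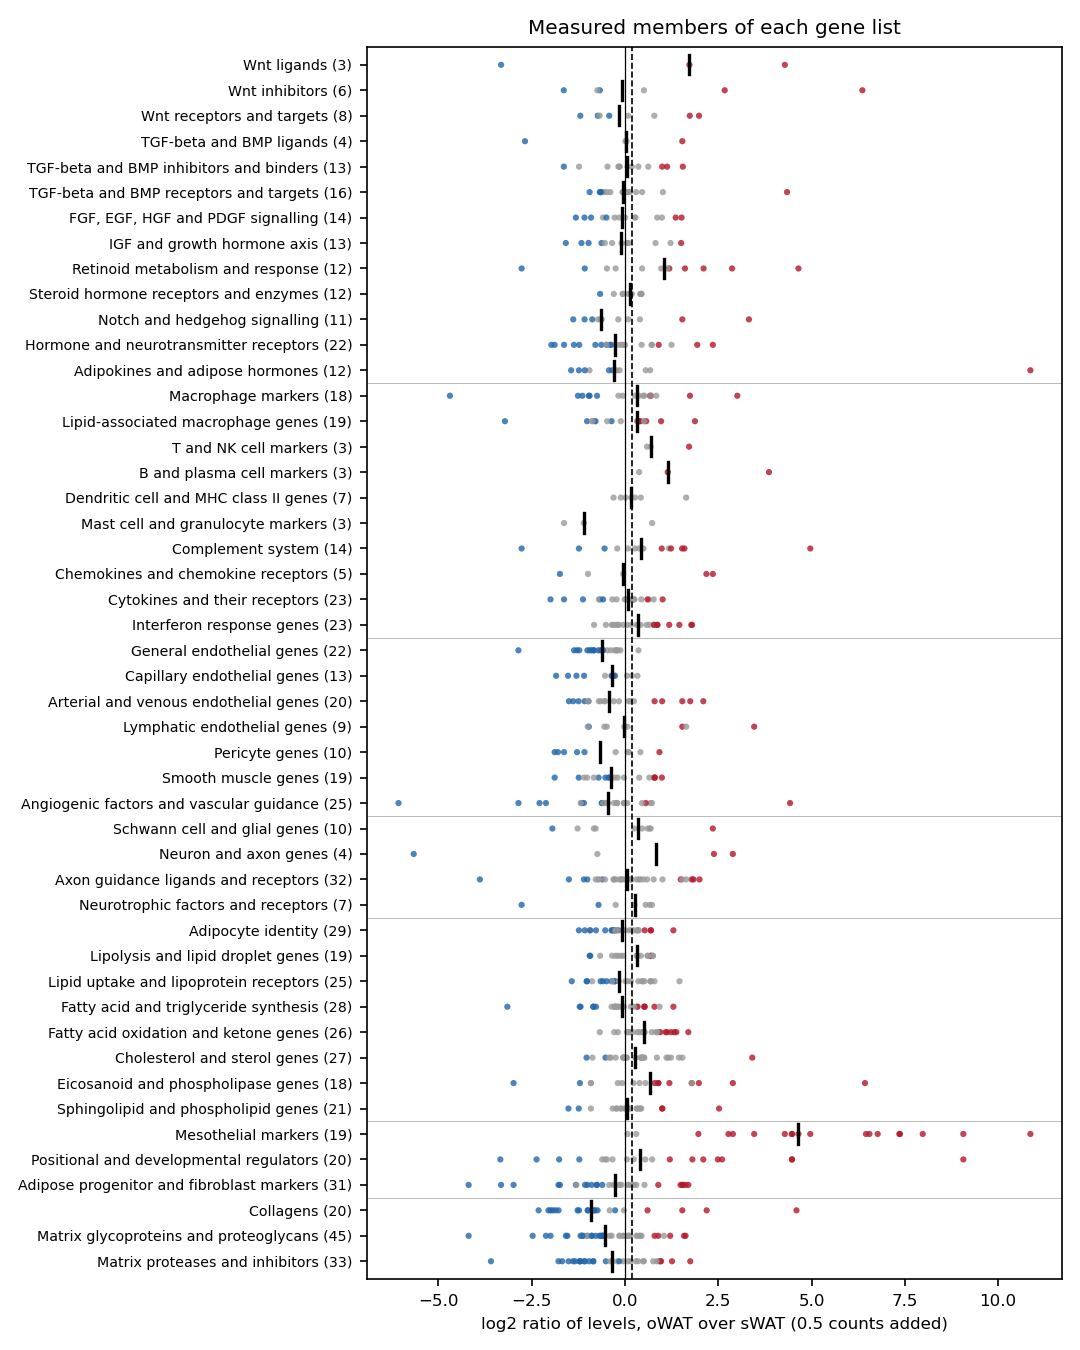
Log2 ratio of oWAT over sWAT for the measured members of each gene list (points; number measured in brackets), with the list median as a black bar. Red and blue points are genes of the wider set for oWAT and sWAT, grey points lie outside it, and the dashed line is the median of all measured genes. Endothelial, pericyte and matrix lists sit left of the dashed line, and the mesothelial, retinoid and fatty acid oxidation lists sit right of it.

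The retinoid genes called with library totals were all higher in oWAT, while retinoid signalling itself was not measured. Retinoic acid is made from retinal by the ALDH1A dehydrogenases, broken down by CYP26 enzymes, and acts through the nuclear receptors RAR and RXR. All 3 ALDH1A enzymes were called higher in oWAT. ALDH1A2 had 194 counts in oWAT against 7 in sWAT, 26.8-fold (12.8 to 67.6), ALDH1A3 had 309 against 69, 4.33-fold (3.33 to 5.71), and ALDH1A1 had 310 against 98, 3.06-fold (2.43 to 3.88). RARRES1, a membrane protein first found as a retinoid-induced gene, had 94 against 12, 7.58-fold (4.14 to 15.2). DHRS3, which returns retinal to retinol, was in the wider set for oWAT (36 against 15). The opposite arm of the list was CYP26B1, which degrades retinoic acid, with 2 against 16 counts, and RBP4, the carrier of retinol in plasma, with 35 against 72. Both were in the wider set for sWAT, and CYP26B1 was called with TMM and DESeq2 scaling. The receptors did not separate the libraries by these rules: RARG had 21 against 9, RXRB 37 against 18 and RXRA 13 against 9. In all, 4 of 12 measured retinoid genes were called for oWAT and 0 for sWAT, and the median log2 ratio was 1.05. ALDH1A2 is also a mesothelial marker. ALDH1A1 was present in liver (282 counts) and ALDH1A3 was not abundant outside fat (2 in liver, 38 in muscle).

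Secreted Wnt regulators were split between the depots. Wnt proteins bind Frizzled receptors with LRP co-receptors and stabilise beta-catenin; R-spondins strengthen that signal, whereas WIF1 and the SFRP proteins bind Wnts. Among measured ligands, the R-spondin RSPO1, also on the mesothelial list, had 70 counts in oWAT against 3 in sWAT, a ratio of 22.6 (7.41 to 112), and WNT2B had 32 against 9, 3.44-fold (1.605 to 8.19), in the wider set only. WNT2 ran the other way at 1 against 14, a ratio of 14.5 (2.202 to 612) in favour of sWAT. The inhibitors divided in the same manner. WIF1 (127 against 1, a ratio of 123, 21.7 to 4891) and DKK3, a secreted protein of the Dickkopf family (161 against 24, 6.49-fold, 4.21 to 10.4), were called for oWAT. SFRP4 was called for sWAT (66 against 200, 3.13-fold, 2.36 to 4.202), and FRZB was in the wider set for sWAT (40 against 62). SFRP2 had 59 against 40 and was in neither set. None of 8 measured receptors and targets was called. In the wider set ROR2, a receptor of WNT5A, and AXIN2, a target of the beta-catenin pathway, were higher in oWAT (22 against 5 and 15 against 4), while FZD4 (185 against 297), FZD6 (11 against 25) and CTNNB1, which encodes beta-catenin (330 against 428), were higher in sWAT. PTK7, a receptor-like partner of Wnt signalling that was not in the lists, was called for oWAT with 237 against 35, 6.55-fold (4.58 to 9.63).

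In the TGF-beta and BMP pathway, 1 binding protein was called for oWAT and 1 for sWAT. FSTL1, a secreted follistatin-like glycoprotein, had 321 counts in oWAT against 968 in sWAT, 3.12-fold (2.74 to 3.55) in sWAT. SMOC2 had 113 against 37, 2.95-fold (2.02 to 4.41) in oWAT, which was no longer called with TMM or DESeq2 scaling. LTBP4, which tethers latent TGF-beta to the matrix (473 against 229), and NBL1, a BMP antagonist (73 against 32), were in the wider set for oWAT. The antagonist CHRDL1 stood at 160 against 175 and was in neither set. Ligand counts were low: BMP4 (25 against 8) was in the wider set for oWAT and GDF10 (2 against 15) for sWAT, while TGFB1 had 8 against 7 and TGFB3 16 against 15. Of 16 receptors and targets only ID4, an inhibitor of differentiation, was called (10 against 0, for oWAT), and the call rested on the minimum of 10 counts and was lost with TMM and DESeq2 scaling. Endoglin (ENG, 159 against 297), TGFBR3 (161 against 249), TGFBI (74 against 113) and CCN2 (98 against 148) were in the wider set for sWAT.

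**Figure D3:**
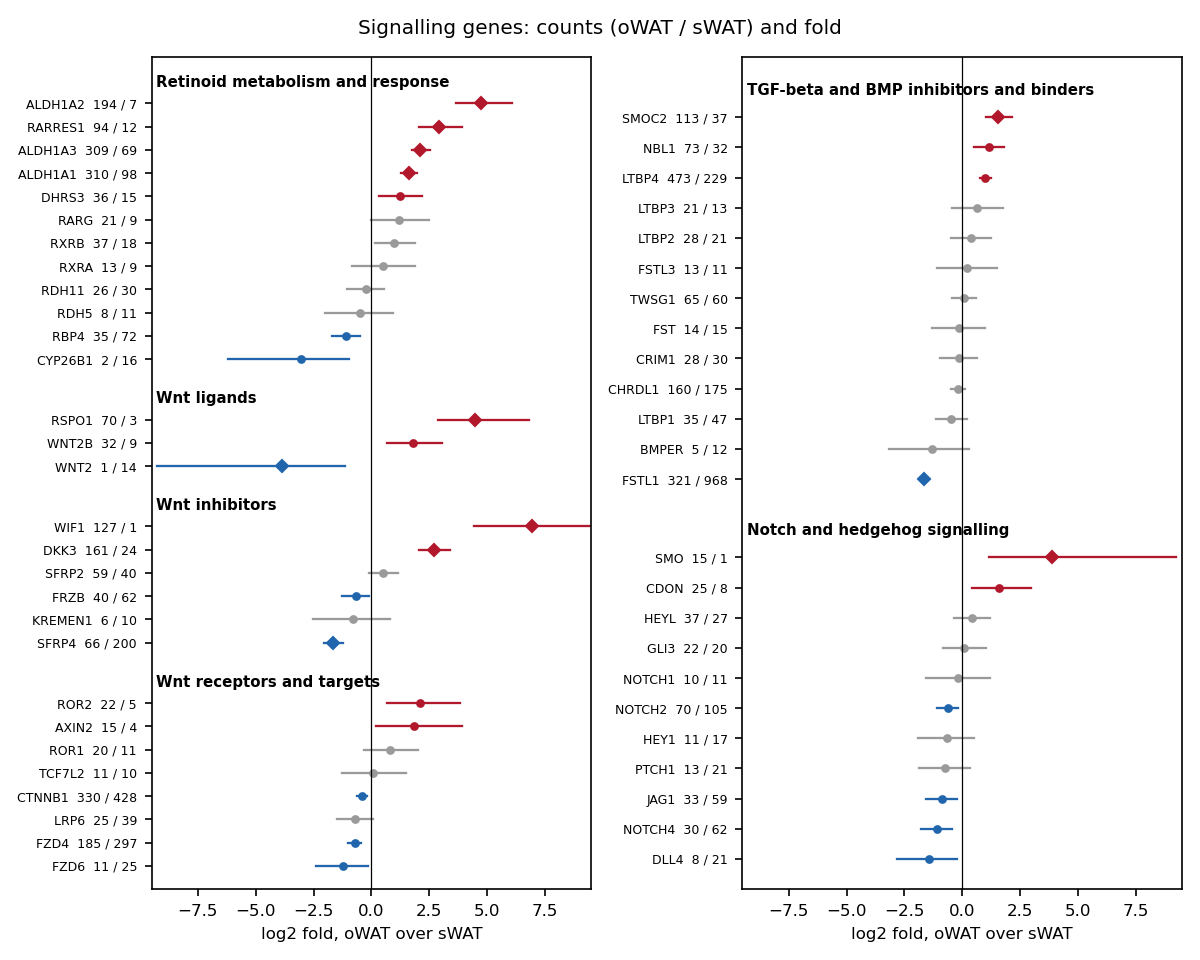
Log2 fold of oWAT over sWAT with its exact 95% interval (library totals) for measured members of 6 signalling lists; the 2 numbers beside each gene are its counts in oWAT and sWAT. Diamonds are called genes, red and blue mark the wider set for oWAT and sWAT, and grey genes are outside it. The 3 ALDH1A enzymes lie right of 0, whereas CYP26B1, SFRP4 and FSTL1 lie left of it.

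Growth factor receptors showed smaller differences, with 0 of 14 genes called among FGF, EGF, HGF and PDGF signalling. In the wider set FGF1 (69 against 23, 2.902-fold, 1.79 to 4.88) and ERBB2 (30 against 11) were higher in oWAT. The PDGF receptors PDGFRB (181 against 372, 2.12-fold, 1.77 to 2.55) and PDGFRA (30 against 73, 2.52-fold, 1.62 to 3.99), carried by pericytes and by adipose progenitors, were higher in sWAT. In the IGF axis, IGFBP2 (45 against 15) was higher in oWAT, and IGFBP3 (220 against 419, 1.97-fold, 1.67 to 2.33), IGFBP5 (175 against 262), IGFBP6 (10 against 30) and the receptor IGF2R (79 against 172) were higher in sWAT, all in the wider set. IGF1 itself had 14 against 13 counts. SMO, the signal transducer of the hedgehog pathway, was called for oWAT with 15 against 1, a ratio of 14.5 (2.23 to 611), and lost the call with DESeq2 scaling and with TMM over the 2 fat libraries. The hedgehog co-receptor CDON was in the wider set (25 against 8), whereas PTCH1, a receptor and target of the same pathway, had 13 against 21. The Notch ligands JAG1 (33 against 59) and DLL4 (8 against 21) and the receptors NOTCH2 (70 against 105) and NOTCH4 (30 against 62) were in the wider set for sWAT.

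Receptors for hormones and transmitters were more often higher in sWAT: 10 of 22 were in the wider set for sWAT and 3 for oWAT, with a list median of -0.26. The only call was VIPR2, a receptor for vasoactive intestinal peptide, in oWAT with 136 against 34, 3.87-fold (2.64 to 5.81). The glutamate receptor subunit GRIA3 (18 against 3) and the adiponectin receptor ADIPOR1 (103 against 53) joined it in the wider set. On the sWAT side were both natriuretic peptide receptors of fat, the signalling receptor NPR1 (137 against 206, 1.55-fold, 1.25 to 1.94) and the clearance receptor NPR3 (65 against 163, 2.59-fold, 1.93 to 3.51), the latter called with TMM and DESeq2 scaling. The oxytocin receptor OXTR (69 against 116, 1.74-fold, 1.28 to 2.38), the GABA receptor subunit GABRE (105 against 143), the prostaglandin receptor PTGER3 (113 against 145), the angiotensin receptor AGTR1 (5 against 16) and the leptin receptor LEPR (3 against 12) were also in the wider set for sWAT. ACE, which makes angiotensin II and stood outside the lists, was called for sWAT with 40 against 130, 3.36-fold (2.34 to 4.92). The beta-adrenergic receptor ADRB3 had 2 against 2 counts, too few to compare. These steroid genes were in neither set: the glucocorticoid receptor NR3C1 had 46 against 46, its target FKBP5 73 against 87 and ESR1 10 against 7, and 0 of 12 genes of that list were called.

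ITLN1 (omentin), a lectin of the omentum that is also on the mesothelial list, had 964 counts in oWAT against 0 in sWAT. Set against the floor used at 0 counts, ITLN1 was 311-fold higher in oWAT (interval from 252). The other adipose hormones in the wider set were all on the sWAT side. ADIPOQ (adiponectin) had 915 counts in oWAT against 1117 in sWAT, 1.26-fold (1.16 to 1.38) in sWAT. CFD (adipsin, 23 against 53), RBP4 and the adiponectin-related C1QTNF1 (132 against 172) and C1QTNF7 (13 against 35) were likewise in the wider set for sWAT. LEP (leptin) had 11 against 21, a fold of 1.97 (0.9095 to 4.53) in favour of sWAT whose interval included 1. ANGPTL4, an inhibitor of lipoprotein lipase, had 78 against 47, and its interval stayed above 1 with library totals but not with every scaling.

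Complement genes had more calls than any other immune list. C3, the central component, C7, a part of the membrane attack complex, and the regulator CLU (clusterin) were called for oWAT. C3 had 1050 counts in oWAT against 32 in sWAT, 31.7-fold (22.3 to 46.7), and 4997 in liver, its main site of synthesis. C7 had 1000 against 320, 3.02-fold (2.66 to 3.44), and CLU 243 against 81, 2.902-fold (2.25 to 3.78), a call lost with DESeq2 scaling and with TMM over the 2 fat libraries. SERPING1, the C1 inhibitor (436 against 179, 2.36-fold, 1.98 to 2.82), and the scavenger collectin COLEC12 (66 against 32) were in the wider set for oWAT. The wider set for sWAT held CFD, C5 (2 against 16) and the regulator CD46 (77 against 109). In all, 3 of 14 measured members were called for oWAT and 0 for sWAT. With DESeq2 scaling the counts were 2 and 1, since C5 was then called for sWAT. C3 also belongs to the mesothelial list.

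Macrophage markers ran in both directions, and their summed counts were 1123 against 1111. In oWAT, CSF1R, the receptor that macrophages need to survive, had 252 against 153, 1.59-fold (1.298 to 1.96), and CD68, a lysosomal glycoprotein, 151 against 90, 1.62-fold (1.24 to 2.13). The complement receptor VSIG4 (60 against 17, 3.41-fold, 1.97 to 6.24) and the scavenger receptor MARCO (12 against 1) also lay in the wider set for oWAT. The wider set for sWAT held CD209 (86 against 200, 2.404-fold, 1.86 to 3.13), which was called with TMM and DESeq2 scaling. It also held F13A1 (48 against 103, 2.22-fold, 1.56 to 3.19) and LYVE1 (42 against 80, 1.97-fold, 1.34 to 2.93). The haemoglobin scavenger CD163 (33 against 62, 1.94-fold, 1.25 to 3.06) and STAB1 (49 against 80) were in the same set. MERTK, a receptor for the uptake of dying cells, was the one call with library totals, with 0 against 12 counts. By the floor of 3 counts it was 4.13-fold higher in sWAT (interval from 2.87). MRC1, the mannose receptor, stood at 99 against 100. LYVE1 and STAB1 are also made by lymphatic or sinusoidal endothelium. The 4 and 6 of 18 members in the wider sets compare with 9.09% and 7.66% of all measured genes.

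Genes of lipid-associated macrophages were also split. SPP1 (osteopontin) was called with 282 counts in oWAT against 74 in sWAT, 3.69-fold (2.84 to 4.83). The chitinase CHIT1 (743 against 484, 1.49-fold, 1.32 to 1.67), GPNMB (807 against 617, 1.27-fold, 1.14 to 1.41) and the lysosomal enzymes CTSB (1839 against 1335), CTSD (678 against 507) and LIPA (561 against 420) were in the wider set for oWAT. APOE ran the other way (103 against 202, 2.03-fold, 1.59 to 2.596 in sWAT), as did the called ATP6V0D2, a proton pump subunit (1 against 13, a ratio of 13.4, 2.02 to 571). TREM2 was sparse at 6 against 6. Over the 19 measured genes, 7 were in the wider set for oWAT and 4 for sWAT.

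Lymphocyte transcripts were few, and the ones in either set were higher in oWAT. JCHAIN, the joining chain of secreted IgA and IgM made by plasma cells, had 52 counts in oWAT against 3 in sWAT, a ratio of 16.8 (5.43 to 83.95), and was called. XBP1, a transcription factor of secretory cells, was in the wider set (99 against 43), as was the T cell surface protein CD6 (25 against 7). The defining B cell gene MS4A1 (CD20) had 3 against 3 counts, and the genes of the T cell receptor complex CD3D, CD3E and CD3G had 2 against 0, 1 against 1 and 1 against 0. The T and NK cell list summed to 155 against 86 counts, and 3 of 36 members were measured. Mast cell and granulocyte genes summed to 69 against 67. MHC class II genes were in neither set: CD74, the invariant chain, had 388 against 312, HLA-DRA 50 against 43 and HLA-DPB1 25 against 30. Reads shared between close copies such as these may be split in ways that the sources used here do not give.

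Interferon response genes were higher in oWAT where they differed. The wider set held 7 of 23 for oWAT and 0 for sWAT, and the list had 0 calls. The antiviral GTPases MX1 (48 against 13, 3.57-fold, 1.905 to 7.19) and MX2 (35 against 12, 2.82-fold, 1.43 to 5.97), IFIT2 (43 against 18), and IFI6 (19 against 5) were among the 7. Other genes of the same response did not follow: IFIT1 had 29 against 25, IFIT3 19 against 33, OAS1 14 against 17 and OAS3 47 against 65. Of the chemokines, CCL24 (eotaxin-2, 18 against 3) and CXCL16 (30 against 6, 4.84-fold, 1.98 to 14.2) were in the wider set for oWAT and CXCL14 (12 against 40, 3.45-fold, 1.77 to 7.21) for sWAT. CXCL12, a stromal chemokine, had 498 against 498 counts. Of 23 measured genes of cytokines and their receptors, 2 were in the wider set for oWAT and 5 for sWAT, with 0 calls. On the oWAT side were the macrophage growth factor CSF1 (228 against 145, 1.52-fold, 1.23 to 1.89) and IL16 (38 against 18). The sWAT side included the shared receptor of the interleukin-6 family, IL6ST (212 against 326, 1.59-fold, 1.33 to 1.899), and OSMR (40 against 85, 2.196-fold, 1.49 to 3.28). IL6 itself was at 0 in both fat libraries, and IL1B had 1 against 0.

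**Figure D4:**
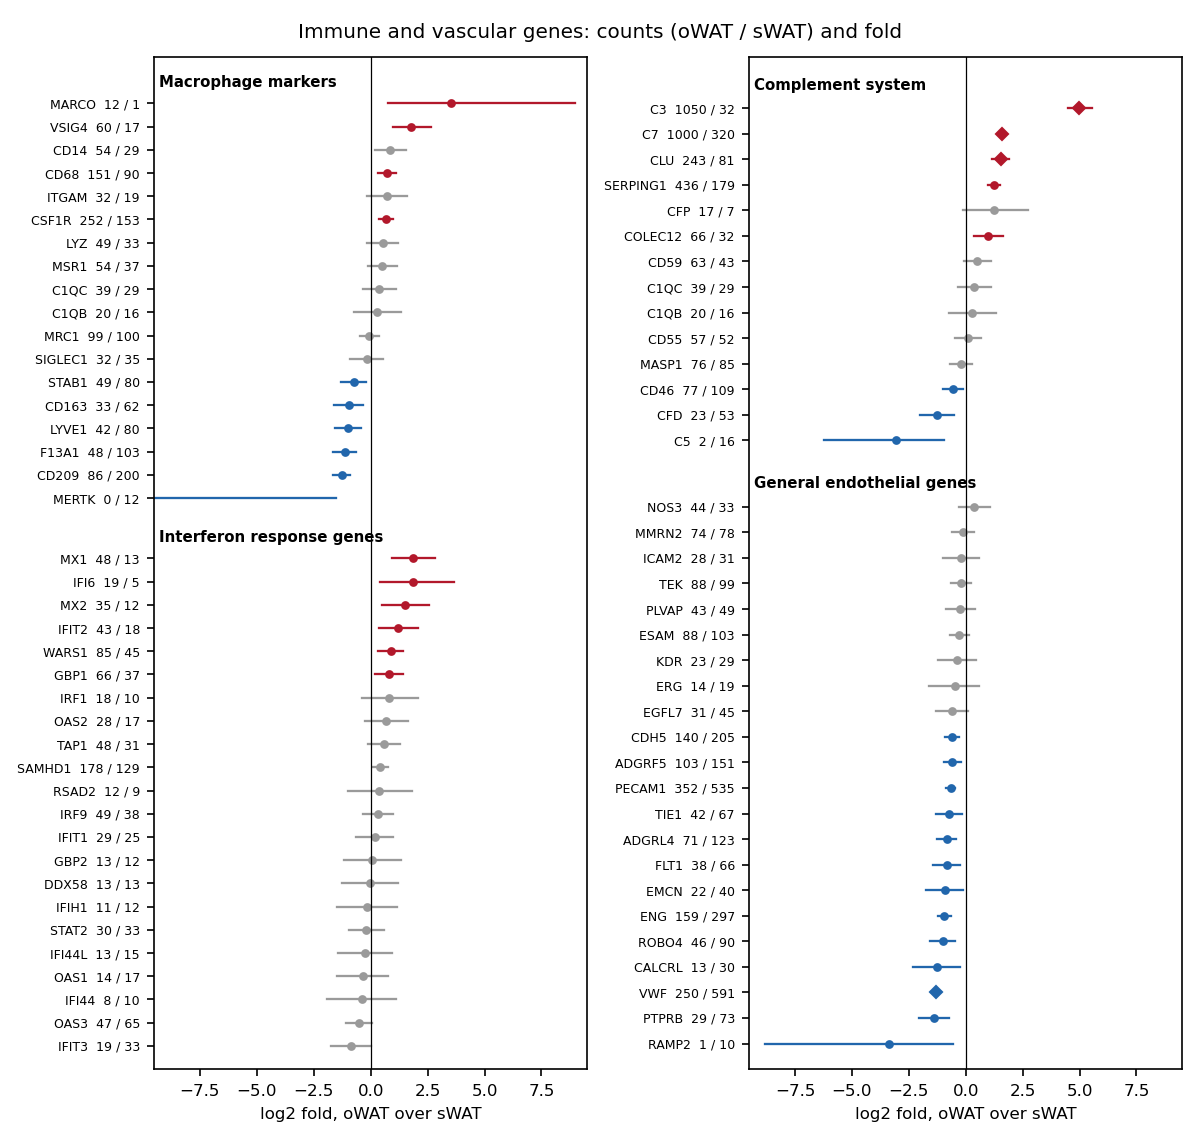
Log2 fold of oWAT over sWAT with its exact 95% interval for measured macrophage, interferon, complement and endothelial genes; the 2 numbers beside each gene are its counts in oWAT and sWAT. Colours and diamonds are as in the plot of signalling genes, and a line without a marker has 0 counts in one library. CSF1R and CD68 lie right of 0 and CD163, LYVE1 and CD209 left of it, while 13 of 22 endothelial genes are blue and none is red.

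General endothelial and capillary genes in the wider set were all on the sWAT side, while the other vessel lists were mixed. Of 22 measured general endothelial genes, 13 were in the wider set for sWAT and 0 in that for oWAT, with a list median of -0.62 on the log2 scale. The list summed to 4307 against 7229 CPM. VWF, the clotting protein stored in endothelial cells, was the one call, with 250 counts in oWAT against 591 in sWAT, 2.44-fold (2.104 to 2.84) in sWAT. The junction proteins PECAM1 (352 against 535, 1.57-fold, 1.37 to 1.802) and CDH5 (140 against 205, 1.51-fold, 1.21 to 1.89), ENG (1.93-fold, 1.59 to 2.36), ROBO4 (46 against 90, 2.02-fold, 1.402 to 2.95) and PTPRB (29 against 73, 2.602-fold, 1.67 to 4.15) were higher by smaller folds. KDR and TEK, receptors for VEGF and angiopoietins, had 23 against 29 and 88 against 99, and NOS3 had 44 against 33; none of the 3 was in either set. CD93, an endothelial and myeloid lectin outside the lists, was called for sWAT (80 against 241, 3.11-fold, 2.41 to 4.06).

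Capillary genes had 0 calls and 8 of 13 in the wider set for sWAT, including BTNL9 (32 against 90, 2.91-fold, 1.92 to 4.499), RGCC (10 against 36, 3.72-fold, 1.81 to 8.41) and CD300LG (27 against 65). BTNL9 and RGCC were called with TMM and DESeq2 scaling. GPIHBP1, which moves lipoprotein lipase into the capillary, had 47 against 55 and was in neither set. Arterial and venous genes went both ways, with 2 calls for oWAT and 1 for sWAT, and 5 and 5 of 20 in the wider sets. Arterial SEMA3G was called for sWAT (65 against 179, 2.85-fold, 2.13 to 3.84), with DLL4 and NOTCH4 in the wider set. PLAT, the tissue plasminogen activator (109 against 31, 3.402-fold, 2.26 to 5.25), and the adhesion molecule VCAM1 (130 against 43, 2.92-fold, 2.06 to 4.23) were called for oWAT; PLAT lost its call with DESeq2 scaling and VCAM1 with each of the 4 other scalings. Both are also made by cells other than endothelium. NR2F2, a regulator of vein identity also active in visceral mesoderm, was in the wider set for oWAT (15 against 3). Lymphatic genes were mixed, with MMRN1 (40 against 13) higher in oWAT, LYVE1 in sWAT, PROX1 at 2 against 4 and CCL21 at 0 in both. PKHD1L1 (28 against 2), called for oWAT, is in both the lymphatic and the mesothelial list.

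Mural cells followed the endothelium in part. PDGFRB, STEAP4 (43 against 102, 2.45-fold, 1.701 to 3.59), the potassium channel subunit ABCC9 (5 against 18), TRPC6 (3 against 12) and AGTR1 were the 5 of 10 pericyte genes in the wider set for sWAT, and 1, the carboxypeptidase gene CPM (338 against 172), was in that for oWAT. RGS5 had 138 against 100, the opposite order, and was in neither set. Of 19 smooth muscle genes, 3 were in the wider set for oWAT and 6 for sWAT. Smooth muscle myosin MYH11 was higher in sWAT (75 against 172, 2.37-fold, 1.797 to 3.15), while caldesmon CALD1 (251 against 140), LMOD1 (58 against 28) and SMTN (69 against 38) were higher in oWAT and ACTA2 stood at 66 against 65.

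Angiogenic and angiopoietin-like factors gave 3 calls. VEGFD, a ligand of the lymphatic and vascular VEGF receptors, had 7 counts in oWAT against 35 in sWAT, 5.17-fold (2.26 to 13.8) in sWAT. The angiopoietin-like proteins ran in opposite directions. ANGPTL5 was at 0 against 32, 11.03-fold higher in sWAT by the floor of 3 counts (interval from 8.46). ANGPTL7 was at 55 against 2, a ratio of 26.6 (7.02 to 225) in favour of oWAT. ANGPTL5 had 0 counts in liver and 1 in muscle. The semaphorin and VEGF co-receptor NRP1 (74 against 154, 2.15-fold, 1.62 to 2.88), thrombospondins THBS1 (74 against 161) and THBS2 (175 against 259) and the hypoxia factor EPAS1 (641 against 955, 1.54-fold, 1.39 to 1.705) were in the wider set for sWAT, and HIF1A, a related hypoxia factor, in that for oWAT (210 against 138, 1.47-fold, 1.18 to 1.84).

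Nerve genes were sparse. Of 32 Schwann cell and glial genes, 10 were measured and 0 were called. MBP, a myelin protein (18 against 3), was in the wider set for oWAT and GLDN, which gathers sodium channels at nodes (5 against 20), for sWAT. S100B had 3 against 3 and NGFR 20 against 12. Among neuronal genes STMN2, a microtubule regulator of axons, was called for sWAT with 0 against 24 counts and was at 0 in liver and muscle. By the floor of 3 counts it was 8.27-fold higher in sWAT (interval from 6.22). NEFL (11 against 1) and STMN3 (13 against 2), also axon genes, were in the wider set for oWAT. UCHL1 had 6 against 10 counts, and GAP43 0 against 1. The summed neuronal list was 43 against 48.

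Guidance and trophic factors, many of which are made by stroma and vessels, gave 4 calls. GFRA1, the receptor of GDNF, had 7 counts in oWAT against 49 in sWAT, 7.24-fold (3.26 to 18.9) in sWAT, while its partner RET was at 0 in both and GDNF had 1 against 0. The ephrin receptor EPHA3 had 1 against 21, a ratio of 21.7 (3.49 to 898) in favour of sWAT, and SEMA3G was given with the arterial genes. SEMA3B had 142 against 34, 4.04-fold (2.76 to 6.06) in oWAT. Class 4 semaphorins SEMA4D (42 against 11) and SEMA4A (37 against 10) and the receptor PLXNB1 (33 against 11), a receptor of SEMA4D, were in the wider set for oWAT. SEMA3C (244 against 360, 1.52-fold, 1.29 to 1.802) and NRP1 were in that for sWAT. SLIT3 had 173 against 135 and was in neither. SLC6A3, the dopamine transporter, which was outside the lists, was called for oWAT with 22 against 0 counts and 0 in liver and muscle.

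Lipid synthesis genes higher in sWAT included the enzymes from malonyl-CoA to monounsaturated fatty acids. FASN, the fatty acid synthase, was called with 552 counts in oWAT against 1218 in sWAT, 2.28-fold (2.06 to 2.53), and ELOVL6, which lengthens palmitate to stearate, with 2 against 21, a ratio of 10.9 (2.65 to 95.5). ACACA, which makes malonyl-CoA (18 against 41, 2.35-fold, 1.32 to 4.35), SCD, the stearoyl-CoA desaturase (3804 against 6645, 1.81-fold, 1.73 to 1.88), ME1, a source of NADPH (28 against 49), and GPAM, the entry enzyme of glycerolipid synthesis (342 against 567, 1.71-fold, 1.496 to 1.97), were in the wider set. ACLY (142 against 166), ACACB (135 against 149), DGAT2 (407 against 416) and SREBF1 (51 against 60) were in neither set. The wider set for oWAT held GPD1, which supplies glycerol phosphate (1074 against 720, 1.44-fold, 1.31 to 1.59), PCK1 (77 against 30, 2.48-fold, 1.61 to 3.92), PDK4, which spares pyruvate (267 against 180), and the polyunsaturated fatty acid enzymes FADS1 (181 against 101, 1.73-fold, 1.35 to 2.23) and ELOVL5 (977 against 748, 1.26-fold, 1.15 to 1.39). Of 28 measured genes, 6 were on the sWAT side and 5 on the oWAT side.

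The fatty acid oxidation genes in the wider set were all on the oWAT side. The wider set held 7 of 26 oxidation genes for oWAT and 0 for sWAT, with 0 calls and a list median of 0.51. They included the acyl-CoA dehydrogenases ACADVL (182 against 91, 1.93-fold, 1.496 to 2.52) and ACADS (28 against 8, 3.39-fold, 1.504 to 8.597), the thiolase ACAA2 (64 against 28), the electron carrier ETFA (37 against 14), UCP2 (81 against 33, 2.37-fold, 1.57 to 3.68) and the coactivator PPARGC1B (25 against 9). CPT1A, which admits fatty acids to mitochondria, had 36 against 24, HADHA 145 against 101 and CPT2 16 against 19.

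**Figure D5:**
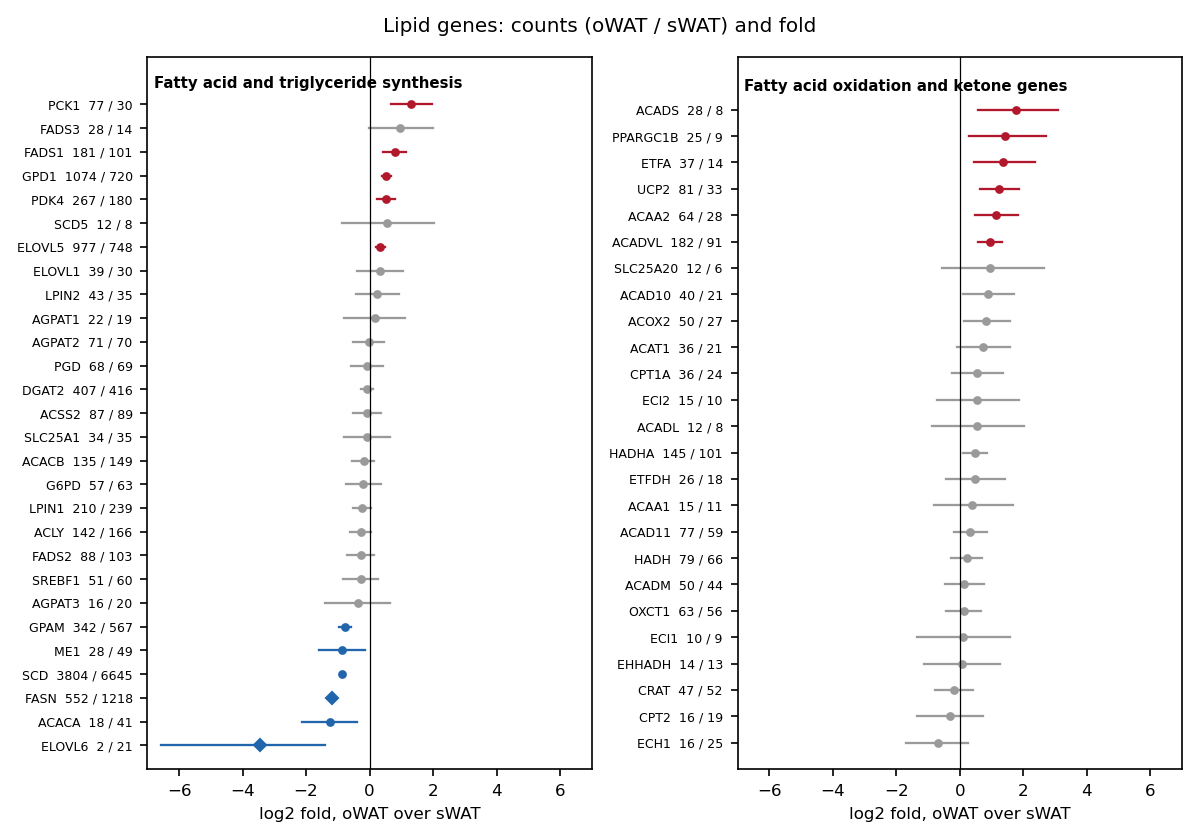
Log2 fold of oWAT over sWAT with its exact 95% interval for measured genes of fatty acid and triglyceride synthesis (left) and of fatty acid oxidation (right); the 2 numbers beside each gene are its counts in oWAT and sWAT. Colours and diamonds are as in the plot of signalling genes. FASN and ELOVL6 are called for sWAT, and every coloured oxidation gene is red.

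Lipolysis genes differed in both directions. LIPE, the hormone-sensitive lipase, had 1313 counts in oWAT against 783 in sWAT, 1.62-fold (1.48 to 1.77) in oWAT and in the wider set. PNPLA2, which starts triglyceride breakdown, was in the same set (97 against 58, 1.62-fold, 1.16 to 2.28), and the droplet coat protein PLIN1 was in neither (216 against 165). PLIN4, another droplet coat protein (629 against 1159, 1.905-fold, 1.73 to 2.102), and PDE3B, the phosphodiesterase through which insulin restrains lipolysis (40 against 75, 1.94-fold, 1.303 to 2.92), were in the wider set for sWAT. MGLL had 68 against 75 and CIDEC 33 against 38. Of the 25 measured genes on the mixed list of lipid uptake and lipoprotein genes, 9 were in the wider set for sWAT and 0 for oWAT. They included LPL (2841 against 3529, 1.28-fold, 1.22 to 1.35), the HDL receptor SCARB1 (145 against 221, 1.58-fold, 1.27 to 1.96), the cholesterol exporter ABCA1 (19 against 38) and the exchange protein CETP (7 against 19).

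The cholesterol synthesis genes HMGCS1 and LSS had 48 against 47 and 55 against 55 counts and were in neither set. Eicosanoid genes were on the oWAT side in 8 of 18 cases and on the sWAT side in 2. Next to ALOX15, a lipoxygenase and the one call (312 against 3, a ratio of 101, 34.1 to 491), these were the cyclooxygenase PTGS1 (37 against 10, 3.58-fold, 1.75 to 8.07), the prostacyclin synthase PTGIS (154 against 80, 1.86-fold, 1.41 to 2.47), the epoxide hydrolase EPHX2 (26 against 6), CYP1B1 (212 against 110), EPHX1 (74 against 41) and the phospholipases PLA2G2A (11 against 1) and PLA2G7 (29 against 12). The sWAT side held PTGR1 (23 against 52) and the prostaglandin D synthase PTGDS (1 against 11). In sphingolipid metabolism SMPD3, a neutral sphingomyelinase, was called for oWAT (44 against 7, 6.08-fold, 2.72 to 16.003).

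Positional regulators differed in both directions. On the oWAT side the calls were WT1, BNC1, GATA5 and OSR1, a factor of intermediate and lateral mesoderm. WT1 had 277 against 0 counts, 89.3-fold higher in oWAT by the floor of 3 counts (interval from 72.2). BNC1 and GATA5 each had 11 against 0, and OSR1 had 78 against 12, 6.29-fold (3.404 to 12.7). WT1 and BNC1 are mesothelial markers. The wider set added NR2F2, MEIS1 (14 against 2), MEIS2 (23 against 6) and BNC2 (53 against 22). On the sWAT side TBX15, a T-box factor of trunk mesenchyme, was called with 2 against 24, a ratio of 12.4 (3.08 to 108), and it had 359 counts in muscle and 3 in liver. TBX18 (2 against 12), OSR2 (13 against 30) and HOXC6 (3 against 11) were in the wider set for sWAT. Other HOX genes had few counts: HOXA5 had 9 against 5, HOXA10 1 against 9, HOXA3 8 against 1, HOXD4 8 against 11 and HOXC8 0 against 3.

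The progenitor and fibroblast genes split as well. Calls for oWAT were FBLN1 (533 against 167, 3.09-fold, 2.59 to 3.696), GAS6 (326 against 112, 2.82-fold, 2.27 to 3.52; lost with DESeq2 scaling) and SMOC2. Calls for sWAT were MFAP5, a microfibril protein (1 against 26, a ratio of 26.9, 4.41 to 1102), WNT2 and the surface protease FAP (30 against 101, 3.48-fold, 2.295 to 5.42). PI16 (170 against 278, 1.69-fold, 1.39 to 2.06), DPP4 (58 against 95, 1.69-fold, 1.21 to 2.39) and SEMA3C, which mark an early progenitor population of fat, were in the wider set for sWAT together with MFAP5 and WNT2 of the same population. DCN, LUM and CD34 were in neither set, with DCN at 927 against 841, LUM at 506 against 544 and CD34 at 374 against 318.

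Among the collagens outside the fibril-forming ones, COL4A2 of basement membranes (285 against 666, 2.42-fold, 2.099 to 2.78) and the fibril-associated COL16A1 (21 against 103, 5.07-fold, 3.15 to 8.54) were called for sWAT. The members of the matrix glycoprotein and protease lists called for sWAT included NID1, a linker of basement membranes (116 against 328, 2.92-fold, 2.36 to 3.64). The laminin chain LAMA2 (18 against 99, 5.68-fold, 3.42 to 9.99), MFAP5, FAP and the collagen crosslinker LOX (66 against 183) were also called. So were the inhibitor TIMP3 (396 against 883, 2.305-fold, 2.04 to 2.601) and the protease MMP3, stromelysin (1 against 17, a ratio of 17.6, 2.75 to 734). The collagen VI chains did not move together: COL6A3 was higher in sWAT (205 against 467, 2.35-fold, 1.99 to 2.79; called with TMM and DESeq2 scaling), COL6A1 higher there by a smaller fold (1215 against 1413, 1.202-fold, 1.11 to 1.299), COL6A2 higher in oWAT (222 against 141), and COL6A5 was called for oWAT with 12 against 0 counts. The laminin chain LAMB1 was in the wider set for oWAT (355 against 148, 2.32-fold, 1.91 to 2.83).

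Among the remaining genes with the largest lower bounds or most counts in oWAT were TGM2, a transglutaminase (172 against 15, 11.1-fold, 6.54 to 20.3), CLIC5 (259 against 9, 27.8-fold, 14.4 to 61.6, with 243 in muscle), the polarity gene CRB2 (41 against 0), the junction receptor CXADR (34 against 1) and PAMR1 (195 against 46, 4.101-fold, 2.96 to 5.79). CRB2 and CXADR are typical of epithelia. Those for sWAT included ITIH5, a hyaluronan-binding protein (328 against 750, 2.36-fold, 2.07 to 2.699), PXDN, a peroxidase that crosslinks collagen IV (222 against 636, 2.96-fold, 2.54 to 3.47), NT5E (CD73), which makes adenosine (14 against 66, 4.87-fold, 2.71 to 9.395), the matricellular protein CCN3 (13 against 59, 4.69-fold, 2.54 to 9.32), the focal adhesion protein TNS1 (136 against 356) and the methyltransferase SETD7 (48 against 144). The genes called for oWAT took 3.18% of oWAT counts and 0.501% of sWAT counts. Those called for sWAT took 10.2% of sWAT and 2.89% of oWAT counts. A few fibrillar collagens made up most of that sWAT share.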

How the data were processed

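RNA of 5 monkeys was pooled per tissue and read on a PacBio Sequel II, per the labels' protocols. The authors deposited whole-number counts per gene, not normalized. Reads were aligned with minimap2 2.24, as the submitters' processing notes record; counter, build, annotation, filters and strand use: not given in the sources used here. Counts that name no gene (19.5% of oWAT and 16.6% of sWAT counts) were left out of totals and folds. Each fold compared 2 counts scaled to library totals, with an exact Clopper-Pearson 95% interval. At 0 counts the fold was taken against a floor of 3 counts, and it is not the lower bound of the interval. Neither PCR copies nor animals enter these intervals. List medians used 0.5 added counts. edgeR 4.0.16 (TMM) and DESeq2 1.42.0 gave scaling factors only. The fold script was tested on simulated data with 200 changed genes.

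The members and the gene lists were chosen with earlier results of these data known, so they are no independent evidence. Named were called list members, the 30 called genes per direction with the largest lower bound and the 30 with the most counts, and, per list, up to 5 uncalled members with the most counts and members at 0. Other names, many of the wider set among them, were chosen after their values were seen. The wider set was also added after seeing the data. Some genes of the lists are counted in them but not reported here by name, nor drawn in the plots of single genes.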

Additional observations from a re-analysis of the deposited data

Results flagged for a closer look

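Of the counts deposited for oWAT, 19.5% were in the row that names no gene, and of those for sWAT 16.6%. These counts lie outside the comparison, and which transcripts they hold was not tested.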

How the results depend on the processing

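No paired analysis was possible because each tissue has 1 pooled library, and no library could be left out. The count of 94 genes for oWAT became 46 with an interval at 0.1% instead of 5% error, 1059 with a lower bound above 1 and 33 with one above 4. The count of 46 for sWAT became 70 with TMM over the 4 libraries, 79 with TMM over the 2 fat libraries, 82 with DESeq2 size factors, 15 at 0.1% error, 539 with a lower bound above 1 and 3 with one above 4. The wider set changed from 640 to 179 (0.1% error) or 1059 (library totals alone) for oWAT, and from 539 to 211 (0.1% error) or 867 (DESeq2 size factors alone) for sWAT. Of 59 named genes called for oWAT, 8 lost the call with DESeq2 scaling and 15 at 0.1% error. Of 43 for sWAT, 0 and 28 did. The 0 carries no information, because DESeq2 scaling raises every fold in favour of sWAT. No named call reversed, but none could have. A call needs an interval above 2, the other scalings lowered log2 ratios by only 0.11 to 0.18, and the remaining settings change thresholds alone. Among these named genes a minimum of 20 counts ended 6 calls in each direction. Among all genes that minimum left 74 of 94 calls for oWAT and 40 of 46 for sWAT.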

Other observations

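The following genes were chosen after their values were seen. GAS6, a ligand of the TAM receptors, was higher in oWAT, and the receptors differed among themselves: TYRO3 had 14 against 1 counts, AXL 201 against 243 and MERTK 0 against 12, while PROS1, the other ligand, had 129 against 188. Of genes known from leukocytes, 4 picked from outside the lists were in the wider set for oWAT, so they give no count for leukocyte genes as a group. They were the integrin chain ITGB2 (255 against 113, 2.18-fold, 1.74 to 2.75), the phosphatase PTPRC, known as CD45 (39 against 11, 3.43-fold, 1.72 to 7.43), the actin bundler LCP1 (324 against 145, 2.16-fold, 1.77 to 2.65) and SERPINB9 (262 against 110, 2.304-fold, 1.84 to 2.91). Of genes that handle iron, the 3 picked were in the wider set for sWAT, which likewise says nothing of such genes as a group: the ferritin chains FTH1 (33 against 88, 2.76-fold, 1.83 to 4.25) and FTL (80 against 146, 1.89-fold, 1.43 to 2.51) and transferrin, TF (151 against 308, 2.11-fold, 1.73 to 2.58). TF is also a hepatocyte gene, and ALB was at 1 against 0.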
